A study of Mus musculus with 13 samples.

Results

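The 5 genes described here are 4 galectins, Lgals1, Lgals3, Lgals8 and Lgals9, and the galectin-3 binding protein gene Lgals3bp, of 55401 genes in the bulk RNA-seq of the cuprizone mouse model. They were chosen by gene name, with earlier results of these libraries known, and each name had 1 row in the table. All 5 passed the filter on low counts, as did 14985 genes in total. The libraries came from 1 frozen brain hemisphere per male mouse, aged 6 to 8 weeks according to the labels. Wild-type C57BL/6J mice are named in the methods of the study, which give a higher age. The text of the labels counts fewer mice per group than there are libraries, and all 13 libraries were used. A figure legend of the study counts 13 samples with bulk RNA-seq, 5 control, 4 CPZ and 4 recovery. Its methods count fewer mice per group than that. Whether each library is a separate mouse is therefore not certain. Mice of the 4 CPZ libraries ate a diet with 0.3% cuprizone, a copper chelator that injures oligodendrocytes, for 4 weeks. Those of the 4 RCV libraries ate the cuprizone diet for 4 weeks and then a control diet for 2 weeks. Those of the 5 CTL libraries ate the control diet for 6 weeks. CPZ mice were therefore collected 2 weeks earlier in the study than both other groups. RCV was taken from the treatment field, since the titles of these libraries start with "Veh".

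Galectins are lectins that are made in the cytosol, leave the cell without a signal peptide and bind beta-galactosides on surface and matrix glycoproteins. Inside the cell, galectin-3, galectin-8 and galectin-9 also bind glycans that become exposed when an endosome or lysosome is damaged. Galectin-3 is known as a product of activated microglia and macrophages, galectin-1 of astrocytes and vessels, and galectin-9 of microglia and astrocytes. Lgals3bp encodes a secreted, heavily glycosylated protein that binds galectin-3 and is known as an interferon-inducible gene.

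In mm10 with the GENCODE M21 annotation, Lgals1 lies on chr15:78926725-78930465 of the plus strand and Lgals3 on chr14:47367751-47386160 of the plus strand. Lgals3bp lies on chr11:118392751-118402092, Lgals9 on chr11:78962974-78984946 and Lgals8 on chr13:12439415-12464944, all of the minus strand. Lgals8 shares 875 bases with Heatr1 on the opposite strand, where the libraries held 143 to 285 Heatr1 counts. Whether the counting used strand is not given, so reads from the shared bases could belong to either gene. The Lgals1 pseudogenes Lgals1-ps1 and Lgals1-ps2 held at most 4 counts in any library.

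Promoter sequences from RefSeq (GRCm38.p6), 250 bases before to 50 after the start that RefSeq gives, were at hand for 4 of the 5 genes. The windows of Lgals3bp and Lgals9 are shown because they hold letters of the interferon-stimulated response element, and interferon-stimulated genes are among those followed below. Capitals mark matches, on either strand, to AAANNGAAA or to the longer GAAANNGAAA, of which the shorter is a part. The Lgals3bp window is chr11:118401910-118402209 and the Lgals9 window chr11:78984875-78985174, both on the minus strand and printed 5′ to 3′.
Lgals3bp: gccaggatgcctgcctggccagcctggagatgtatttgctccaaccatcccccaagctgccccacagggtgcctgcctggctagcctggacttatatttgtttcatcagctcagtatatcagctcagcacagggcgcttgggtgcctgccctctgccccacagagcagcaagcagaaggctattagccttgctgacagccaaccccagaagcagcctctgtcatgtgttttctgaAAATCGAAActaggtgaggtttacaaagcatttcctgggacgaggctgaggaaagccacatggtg
Lgals9: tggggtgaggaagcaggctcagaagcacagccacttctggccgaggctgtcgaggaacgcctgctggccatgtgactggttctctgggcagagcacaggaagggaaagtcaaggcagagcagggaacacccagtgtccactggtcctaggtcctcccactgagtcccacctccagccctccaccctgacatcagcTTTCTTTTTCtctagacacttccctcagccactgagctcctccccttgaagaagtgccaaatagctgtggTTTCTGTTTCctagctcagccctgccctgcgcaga
Lgals3bp held 1 match to AAANNGAAA, at bases 236 to 244 of its window. Lgals9 held 2 matches to GAAANNGAAA as reverse complements, at bases 196 to 205 and 266 to 275. In the windows of Lgals3 (chr14:47373610-47373909) and Lgals8 (chr13:12461689-12461988) these letters were not found. Both of these windows lie inside the gene spans given above, so the 5′ ends of those spans were not searched. Of the 32851 promoter windows of the same length, 10.6% held AAANNGAAA and 3.44% held GAAANNGAAA. The letters CACGTG, the core that TFEB and related lysosomal factors bind, and TGANTCA, the AP-1 site, were in none of the 4 windows, against 7.15% and 7.81% of all windows. A match describes the sequence only, and no binding was measured.

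The libraries held 4605100 to 8197289 counts, so that 1 CPM, the count scaled to library size, stood on few reads. Within groups, the libraries differed beyond counting error, with a chi-square of 4.46 to 17.2 per gene over 22 pairs. A pair of RCV libraries, replicates 3 and 4, held 10 and 8 counts of the choroid plexus gene Ttr, and the other libraries 2667 to 16274. The neutrophil genes S100a8 and S100a9 reached 25 and 37 counts in CTL replicate 2 and 35 and 23 in RCV replicate 1, with 0 to 3 counts elsewhere. As a check of the model, all 8 markers of mature oligodendrocytes fell in CPZ against CTL, and none was called in RCV against CTL. All 12 microglia markers rose in CPZ against CTL, and their summed level was 415 ± 30.7 CPM in CTL (SD, n = 5), 2061 ± 668 in CPZ (SD, n = 4) and 721 ± 97.2 in RCV (SD, n = 4). In bulk tissue, more cells of a type and more RNA per cell cannot be told apart.

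Lgals3bp was at its highest in CPZ and at an intermediate level in RCV, with no overlap between any of the 3 groups. Scaled by TMM, its levels in the CTL libraries were 14.1, 19.4, 20.1, 18.5 and 14.5 CPM. In the CPZ libraries they were 133, 114, 80.5 and 114 CPM, and in the RCV libraries 35.9, 43.4, 32.5 and 38.2 CPM. The lowest CPZ library, replicate 3, was still above every RCV library, and the lowest RCV library above every CTL library. The log2 fold changes were 2.67 (SE 0.15) for CPZ against CTL, 1.11 (SE 0.15) for RCV against CTL and 1.55 (SE 0.15) for CPZ against RCV. With 79 to 939 counts per library, Lgals3bp was the most deeply counted of the genes that separated the groups.

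Lgals9, which encodes a galectin with a pair of carbohydrate recognition domains, followed the same order at a lower level. The CTL libraries had 4.76, 6.00, 2.92, 6.12 and 3.67 CPM. The CPZ libraries had 26.8, 22.1, 12.1 and 22.2 CPM, and the RCV libraries 8.21, 7.45, 9.24 and 9.11 CPM. Again the CPZ libraries were all above the RCV libraries and these all above the CTL libraries, with CPZ replicate 3 as the lowest of its group. The log2 fold changes were 2.14 (SE 0.23) for CPZ against CTL, 0.84 (SE 0.25) for RCV against CTL and 1.30 (SE 0.23) for CPZ against RCV.

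Lgals3, the only chimeric galectin, with a single recognition domain and a long repeat tail, had the largest fitted fold of the 5 between CPZ and CTL and the fewest counts. The CTL libraries held 4, 14, 10, 2 and 2 counts, or 0.544, 2.10, 1.54, 0.306 and 0.367 CPM. The CPZ libraries held 75, 48, 62 and 46 counts (10.8, 5.83, 8.60 and 5.94 CPM), and the RCV libraries 14, 40, 13 and 19 counts (2.05, 6.48, 2.50 and 4.12 CPM). Every CPZ library was above every CTL library, whereas RCV overlapped with both, since RCV replicate 1 was below CTL replicate 2 and RCV replicate 2 above CPZ replicates 2 and 4. The log2 fold changes were 2.96 (SE 0.45) for CPZ against CTL, 1.93 (SE 0.50) for RCV against CTL and 1.03 (SE 0.41) for CPZ against RCV. CTL replicate 2, the highest of its group, was also 1 of the 2 libraries with neutrophil transcripts, and without it the difference between CPZ and CTL was 3.45. The other such library, RCV replicate 1, was the lowest of its group at 2.05 CPM. Whether neutrophil RNA took part in these levels was not tested. Without RCV replicate 2, the difference between CPZ and RCV was 1.45, and without RCV replicate 1 it was 0.81. With single libraries left out in turn, CPZ against CTL ran from 2.73 (without CTL replicate 4) to 3.45. RCV against CTL ran from 1.51 (without RCV replicate 2) to 2.41 (without CTL replicate 2).

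Lgals1, the prototype galectin that acts as a homodimer, was higher in CPZ by a smaller factor and did not differ between RCV and CTL beyond the spread. The CTL libraries had 5.98, 6.15, 7.22, 8.56 and 5.87 CPM. The CPZ libraries had 15.3, 13.9, 9.57 and 11.5 CPM, and the RCV libraries 5.86, 6.80, 7.51 and 8.46 CPM. The CPZ libraries did not overlap with either other group, and the RCV range lay almost wholly inside the CTL range. The log2 fold changes were 0.89 (SE 0.16) for CPZ against CTL, 0.07 (SE 0.18) for RCV against CTL and 0.82 (SE 0.18) for CPZ against RCV.

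Lgals8, another galectin with a pair of recognition domains, was the most even of the 5 and overlapped between all groups. The CTL libraries had 31.8, 31.7, 29.5, 34.6 and 31.5 CPM. The CPZ libraries had 43.9, 39.9, 36.6 and 34.2 CPM, and the RCV libraries 28.7, 39.7, 32.1 and 34.9 CPM. CPZ replicate 4 lay just below the highest CTL library, and 3 of the 4 CPZ libraries were above all CTL libraries. The log2 fold changes were 0.28 (SE 0.094) for CPZ against CTL, 0.09 (SE 0.097) for RCV against CTL and 0.19 (SE 0.10) for CPZ against RCV.

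**Figure D1:**
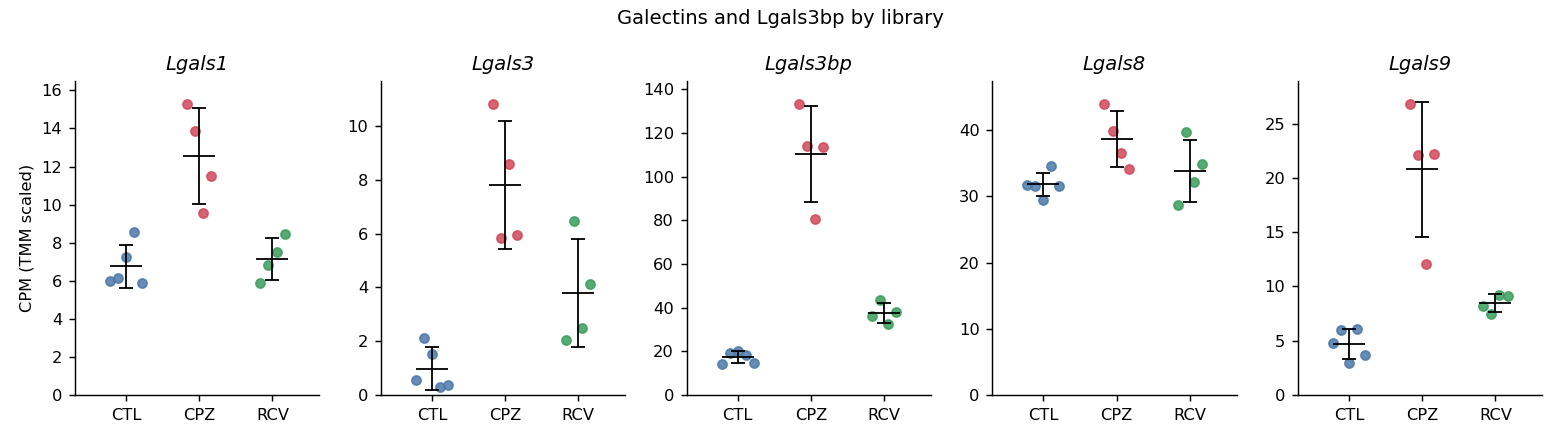
Levels of the 5 genes in CPM (linear axes from 0, scaled by TMM) in 5 CTL, 4 CPZ and 4 RCV libraries, with 1 point per library and the group mean ± SD in black. The CPZ points are above all CTL points for every gene except Lgals8, and the RCV points of Lgals3bp and Lgals9 lie between both other groups.

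These values were known when the genes were chosen, so they are given as a description. In the fit over all genes (edgeR, adjusted p below 0.05), 4 of the 5 were called higher in CPZ against CTL, all but Lgals8, where 7.66% of the genes tested were called higher and 2.50% lower. The same 4 did not overlap between CPZ and CTL, against 8.25% of all genes in that direction. In RCV against CTL, 1 of the 5 was called higher, Lgals3bp, against 0.360% of genes higher and 0.0133% lower, and 2 did not overlap, Lgals3bp and Lgals9, against 2.21% of all genes. In CPZ against RCV, 3 of the 5 were called higher and did not overlap, Lgals1, Lgals3bp and Lgals9, against 5.13% of genes called higher, 1.88% called lower and 8.26% not overlapping with CPZ higher. The comparisons share libraries, so their values are not independent of each other.

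**Figure D2:**
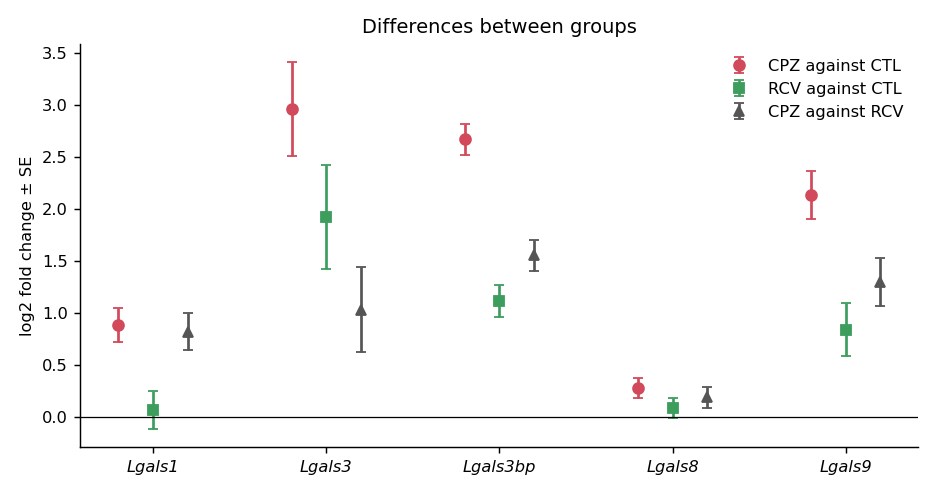
Log2 fold change (y axis) of each gene in CPZ against CTL (circles), RCV against CTL (squares) and CPZ against RCV (triangles). Bars are 1 SE, derived from the F value of the edgeR test. Lgals3, Lgals3bp and Lgals9 have the largest values in CPZ against CTL (2.96, 2.67 and 2.14), and Lgals8 stays within 0.28 of 0 in all 3.

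The share of the CPZ difference that was left in each RCV library, from CPM and relative to the means of CTL and CPZ, was 21.7% ± 4.91 for Lgals3bp and 23.7% ± 5.19 for Lgals9 (SD, n = 4), beside 18.6% ± 5.91 for the summed microglia markers (SD, n = 4). It was 41.3% ± 29.3 for Lgals3 (SD, n = 4), with single libraries from 15.9% to 80.7%, and 6.92% ± 18.9 for Lgals1 (SD, n = 4), with single libraries from -15.4% to 29.4%. The ranges of these genes overlapped. On the log2 scale the shares of Lgals3bp and Lgals9 were larger, 42.0% and 41.6%. For Lgals8 the CPZ difference was too small for a usable share.

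Levels in TPM, which are scaled to transcript length and library size, give the order of the genes within a group. In CTL, Lgals8 was the highest at 38.7 ± 5.48 TPM (SD, n = 5), above every value of the other genes in that group. Lgals3bp at 23.0 ± 5.60 and Lgals1 at 21.9 ± 3.68 followed and overlapped, and Lgals9 at 7.25 ± 2.21 and Lgals3 at 2.56 ± 2.02 TPM (SD, n = 5 for each) overlapped below them. In CPZ, Lgals3bp came first at 132 ± 24.8 TPM (SD, n = 4), above every value of the 4 galectins. Below it, each gene overlapped with the next, from Lgals8 at 41.7 ± 9.95 over Lgals1 at 40.1 ± 8.17 and Lgals9 at 31.4 ± 9.42 to Lgals3 at 18.2 ± 4.25 TPM (SD, n = 4 for each). In RCV, Lgals3bp at 44.1 ± 4.55 and Lgals8 at 38.0 ± 6.23 overlapped, Lgals1 stood at 23.0 ± 3.62, and Lgals9 at 12.99 ± 1.15 and Lgals3 at 11.7 ± 5.06 TPM overlapped (SD, n = 4 for each).

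**Figure D3:**
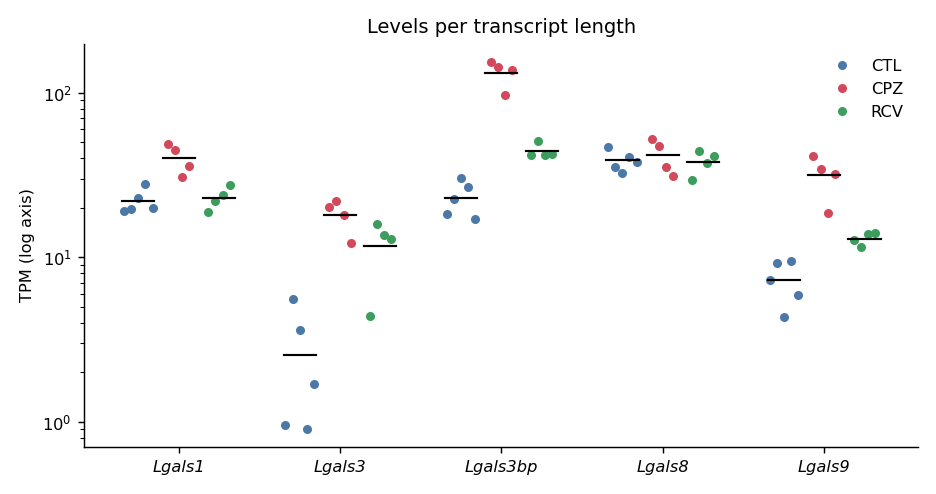
Levels per transcript length in TPM (log axis), with 1 point per library in 5 CTL, 4 CPZ and 4 RCV libraries and group means as black lines. Lgals8 is the highest gene in CTL (mean 38.7) and Lgals3bp in CPZ (mean 132), and the Lgals3 points run from 0.91 to 21.95.

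The summed TPM of the 4 galectins was 70.5 ± 6.28 in CTL (SD, n = 5), 131 ± 28.7 in CPZ (SD, n = 4) and 85.8 ± 13.7 in RCV (SD, n = 4). Lgals8 made up 55.0% ± 5.55 of this sum in CTL (SD, n = 5), 31.7% ± 2.65 in CPZ and 44.4% ± 2.26 in RCV (SD, n = 4 for each), and these ranges did not overlap. The shares of Lgals9 and Lgals3 were higher in every CPZ library than in every CTL library, with Lgals9 at 10.2% ± 2.53, 23.7% ± 4.52 and 15.5% ± 2.96 and Lgals3 at 3.75% ± 2.99, 13.96% ± 2.87 and 13.2% ± 4.56 in CTL, CPZ and RCV (SD, n = 5, 4 and 4). The Lgals1 share stayed near 31.1% ± 4.55, 30.6% ± 1.06 and 27.0% ± 2.54 in the same order (SD, n = 5, 4 and 4).

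The conversion from counts to TPM was not even for Lgals3. TPM divided by CPM ran from 1.77 in CTL replicate 1 to 5.42 in RCV replicate 3, a 3.07-fold range, against 1.09-fold for Lgals1, 1.11-fold for Lgals9, 1.36-fold for Lgals3bp and 1.62-fold for Lgals8. In TPM, the RCV mean of Lgals3 was nearer to the CPZ mean than in CPM, and the cause was not tested.

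Because microglia markers moved with the same groups, each gene was also divided by the summed CPM of the 12 markers. This sum was 4.96-fold higher in CPZ than in CTL and 1.74-fold higher in RCV than in CTL. Per 1000 CPM of markers, Lgals9 was 11.2 ± 2.99 in CTL (SD, n = 5), 10.2 ± 2.02 in CPZ (SD, n = 4) and 12.1 ± 2.67 in RCV (SD, n = 4), with overlap between all groups. Lgals3bp was 41.8 ± 6.78 in CTL (SD, n = 5), 55.6 ± 10.1 in CPZ and 52.2 ± 2.11 in RCV (SD, n = 4 for each), also with overlap. In TPM, the CPZ to CTL ratio of Lgals3bp per marker was 1.03, against 1.33 in CPM.

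Lgals3 per 1000 CPM of markers was 2.28 ± 1.77 in CTL (SD, n = 5), 4.06 ± 1.71 in CPZ and 5.10 ± 2.12 in RCV (SD, n = 4 for each), with overlap between all groups. Lgals1 and Lgals8 were the only 2 of the 5 that were lower per marker in every CPZ library than in every CTL library. Lgals1 stood at 16.4 ± 3.24 in CTL (SD, n = 5), 6.29 ± 0.840 in CPZ and 10.1 ± 2.16 in RCV (SD, n = 4 for each). Lgals8 stood at 76.9 ± 6.31 in CTL (SD, n = 5), 19.97 ± 5.38 in CPZ and 47.2 ± 5.57 in RCV (SD, n = 4 for each). Both were also lower in every RCV library than in every CTL library. Astrocyte markers also moved with the groups, with 4 of 7 called higher and none lower in CPZ against CTL. Over all genes, 7.66% were called higher and 2.50% lower. The summed level of the astrocyte markers was 4150 to 4584 CPM in CTL and 4871 to 5873 CPM in CPZ. In RCV the sum was 4893 to 5524 CPM, inside the CPZ range. Of the 7, 2 were called higher in RCV against CTL, among them Gfap by 1.80, against 0.360% of all genes. Of 6 border macrophage markers, 2 passed the filter and none was called, with Mrc1 at 10 to 43 counts per library. None of the 6 monocyte and neutrophil markers passed it, and in the CPZ libraries their sum was 1.15 to 1.46 CPM. The part of each cell type in the levels of the 5 genes was not tested.

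**Figure D4:**
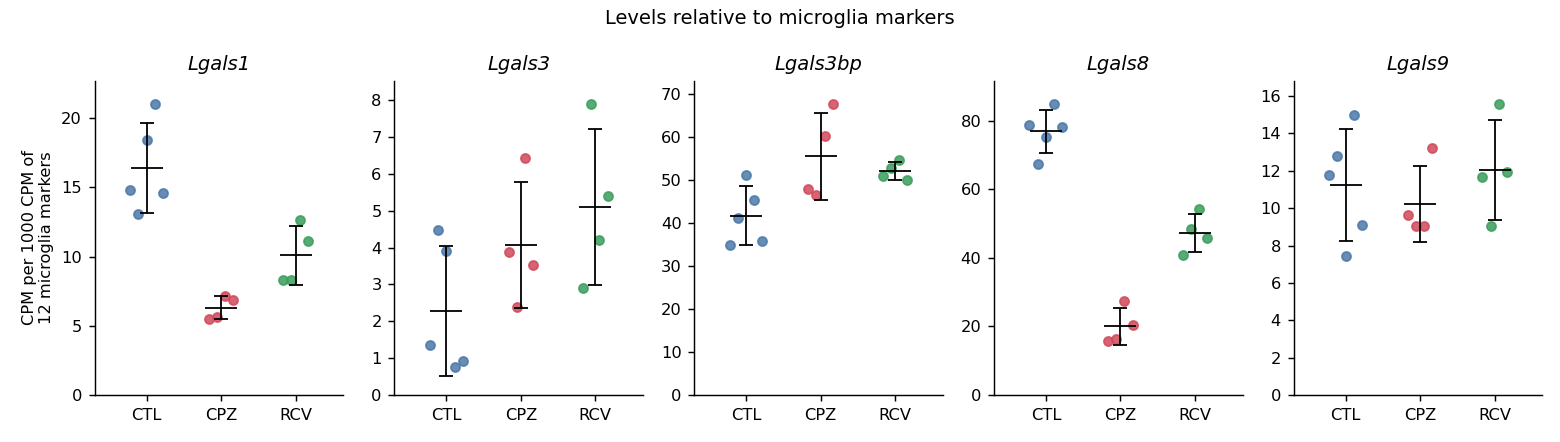
Level of each gene in CPM per 1000 CPM of 12 summed microglia markers (linear axes from 0), with 1 point per library in 5 CTL, 4 CPZ and 4 RCV libraries and the group mean ± SD in black. The points of Lgals3, Lgals3bp and Lgals9 overlap between groups, and those of Lgals1 and Lgals8 are lower in CPZ and in RCV than in CTL.

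Across the 13 libraries, the genes most like each member in log2 CPM differed in kind. Lgals3bp was nearest to B2m, the light chain of MHC class I (Pearson r = 0.996), Cd68, a lysosomal protein of macrophages (0.993), and Csf3r, the receptor of granulocyte colony-stimulating factor (0.993). Lgals9 was nearest to Dock2, a regulator of leukocyte migration (0.984), the predicted gene Gm2629 (0.982) and Hpgds, a prostaglandin D synthase (0.980). Lgals3 was nearest to Ifit3b, an interferon-induced gene (0.942), Ticam2, an adaptor of Toll-like receptor 4 (0.939), and Cd22, a sialic acid binding lectin (0.937). Lgals1 was nearest to Aldh1l1, an astrocyte enzyme (0.973), and Socs3, a feedback inhibitor of cytokine signalling (0.958). Lgals8 was nearest to Pgd, an enzyme of the pentose phosphate pathway (0.934), Tmem176a (0.908) and the ribosomal protein gene Rpl10 (0.907). The points share libraries and group means, and after the group means were taken out these r values ran from 0.697 to 0.911.

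Among the 5 genes, the highest correlation of log2 CPM over the 13 libraries was that of Lgals3bp with Lgals9 (r = 0.943, or 0.440 within groups), and the lowest that of Lgals1 with Lgals3 (0.658, or 0.0323 within groups). Within groups the order was another, with Lgals1 and Lgals3bp highest (0.620) and Lgals3 and Lgals9 lowest (-0.123). With the mean of the microglia markers, r was 0.977 for Lgals3bp, 0.954 for Lgals9, 0.889 for Lgals1, 0.838 for Lgals3 and 0.764 for Lgals8. Within groups it was 0.696, 0.632, 0.572, 0.228 and 0.595 in that order. All of these are descriptions over points that share library and group.

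Of the remaining 7 galectin genes, 2 were tested, Lgals4 and Lgalsl, and neither was called in any comparison (edgeR). At an unadjusted p below 0.05 there were 0 in each. Lgals2, Lgals7, Lgals12 and Grifin were under the filter with at most 7 counts in any library, and Lgals6 was not in the table analysed here. Lgals4, a galectin of the gut epithelium, held 7 to 24 counts, with a log2 fold change of 0.48 (SE 0.29) in CPZ against CTL. The galectin-related gene Lgalsl held 279 to 471 counts, with a log2 fold change of -0.06 (SE 0.080). Its level was higher than that of any of the 4 galectins in CPM, at 62.5 ± 5.06 CPM in CTL (SD, n = 5), 60.1 ± 3.65 in CPZ and 58.8 ± 6.39 in RCV (SD, n = 4 for each).

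Of 20 genes for surface and lysosomal proteins reported to bind galectins, 18 were tested and 14 rose in CPZ against CTL, with none lower. Over all genes tested, 7.66% were called higher. This list was also drawn up with earlier results of these libraries known. The median log2 fold change of the 18 was 0.82, against -0.020 over all genes. None of the 20 is on the short lists of microglia or disease-associated microglia genes used here. Microglia express several of them, so this absence does not set their log2 fold changes apart from those of microglia genes. The largest were those of Ptprc, the leukocyte phosphatase CD45 (3.05, SE 0.20, adjusted p = 2.38e-07), Trem2, a lipid receptor of microglia (3.04, SE 0.26, adjusted p = 7.45e-06), Lag3, an inhibitory receptor (3.01, SE 0.18, adjusted p = 9.39e-08), and Itgam, the integrin CD11b (2.57, SE 0.22, adjusted p = 8.52e-06). Havcr2, which encodes the galectin-9 receptor TIM-3, rose by 2.55 (SE 0.22). The lysosomal membrane genes Lamp1 and Lamp2 rose by 0.39 and 0.81. Igf1r, Bsg, Kdr and Tfrc were the 4 not called, with values between -0.03 and 0.04.

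Between RCV and CTL, 2 of the 18 rose, Lag3 by 2.07 (SE 0.19, adjusted p = 8.8e-05) and Ptprc by 1.57 (SE 0.22, adjusted p = 0.00511). The median was 0.27 against -0.0044 over all genes, of which 0.360% were called higher. The call of Ptprc was lost under limma-voom and under limma on log2(TPM + 1) without a filter. In CPZ against RCV, 9 rose and none fell, with a median of 0.50 against -0.0066. Over all genes, 5.13% were called higher and 1.88% lower. Itgam had 2.17, Trem2 1.76, Cd44, a hyaluronan receptor, 1.72, and Havcr2 1.66.

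Of 21 genes of the response to damaged lysosomes, in which galectins mark the opened membrane, all were tested and none was called in any comparison (edgeR). Among them are the ubiquitin ligase gene Trim16, the transcription factor genes Tfeb and Tfe3 and the ESCRT genes Pdcd6ip, Tsg101 and Chmp4b. At an unadjusted p below 0.05 there were 3 genes in CPZ against CTL, 0 in RCV against CTL and 1 in CPZ against RCV. The medians were -0.0024, 0.0082 and -0.011, and in CPZ against CTL the values ran from -0.20 for Ube2ql1 to 0.21 for Trim16. By limma on log2(TPM + 1), 1 gene was called in CPZ against CTL, Tfe3, with a log2 fold change of 0.48 (adjusted p = 0.0139) against 0.20 in edgeR. RNA levels do not show where a protein sits or whether a membrane is open. Whether lysosomes were damaged was therefore not tested.

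Of 15 genes that build or cap the N-glycan branches that galectins bind, 1 rose and 1 fell in CPZ against CTL. Over all genes tested, 7.66% were called higher and 2.50% lower, so these counts do not set the list apart. The median log2 fold change of the list was 0.0022, against -0.020 over all genes. B4galt1, the galactosyltransferase that makes the N-acetyllactosamine unit, rose by 1.11 (SE 0.16, adjusted p = 0.000199). Mgat3, which adds the bisecting N-acetylglucosamine, fell by 0.27 (SE 0.055, adjusted p = 0.00307). The same 2 genes were called in CPZ against RCV, B4galt1 with 1.03 and Mgat3 with -0.30, and no gene in RCV against CTL. In CPZ against RCV, 5.13% of all genes were called higher and 1.88% lower. Mgat5, the branching enzyme, had -0.06 (SE 0.075) in CPZ against CTL.

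Of 12 interferon-stimulated genes, 11 were tested and all 11 rose in CPZ against CTL, with a median log2 fold change of 2.06. Over all genes tested, 7.66% were called higher and the median was -0.020. Bst2, a tether of budding virus particles, rose by 2.56 (SE 0.20, adjusted p = 7.58e-07), Usp18, an inhibitor of the interferon receptor, by 2.29 (SE 0.37), Oasl2 by 2.21 (SE 0.26) and Isg15, a ubiquitin-like modifier, by 2.06 (SE 0.29). For RCV against CTL, 1 of the 11 was called higher and the median was 1.00, against 0.360% and -0.0044 over all genes. In CPZ against RCV, 8 rose, with a median of 1.15, against 5.13% called higher and a median of -0.0066 over all genes. The largest whose mean log2 CPM reached 1 were Bst2 with 1.76, Rsad2 with 1.58, Usp18 with 1.29 and Irf7 with 1.15. The calls of Rsad2, Usp18 and Irf7 were lost in all 3 fits on log2 TPM, and that of Usp18 also with the replicate number as a block and in 9 of 13 fits with a single library left out. Without RCV replicates 3 and 4, which lacked choroid plexus transcripts, the counts were 12, since the remaining gene then passed the filter, 0 and 4. Lgals3bp, with 2.67, 1.11 and 1.55 in the 3 comparisons, lay above the median of this list in each. It also lay above the medians of the 12 microglia markers, which were 2.30, 0.67 and 1.51. The gene and the lists were chosen with such values known, so these positions are a description only. Whether interferon took part in the level of Lgals3bp was not tested.

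Of 12 genes of disease-associated microglia, the state in which Lgals3 itself is often listed, all rose in CPZ against CTL. Their median was 3.12, against -0.020 over all genes, of which 7.66% were called higher. The largest whose mean log2 CPM reached 1 were Cst7 with 8.38 (SE 0.71), Clec7a with 6.60 (SE 0.41), Itgax with 6.21 (SE 0.52) and Gpnmb with 4.69 (SE 0.35). Between RCV and CTL, 2 were called higher, against 0.360% of all genes tested. These were Itgax by 5.28 (SE 0.57) and Clec7a by 4.85 (SE 0.48). Both calls were lost under limma-voom. The median of the 12 was 1.22, and 10 had an unadjusted p below 0.05 (edgeR), as did 929 of all 14985 genes tested. In 8 the groups did not overlap, with RCV higher, against 2.21% of all genes. In CPZ against RCV, 11 rose, against 5.13% of all genes called higher. The largest above the same abundance were Cst7 at 3.39, Gpnmb at 2.71, Spp1 at 2.26 and Clec7a at 1.75. The lists of disease-associated, interferon-stimulated and microglia genes were drawn up with the rise of such genes in these libraries already known.

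**Figure D5:**
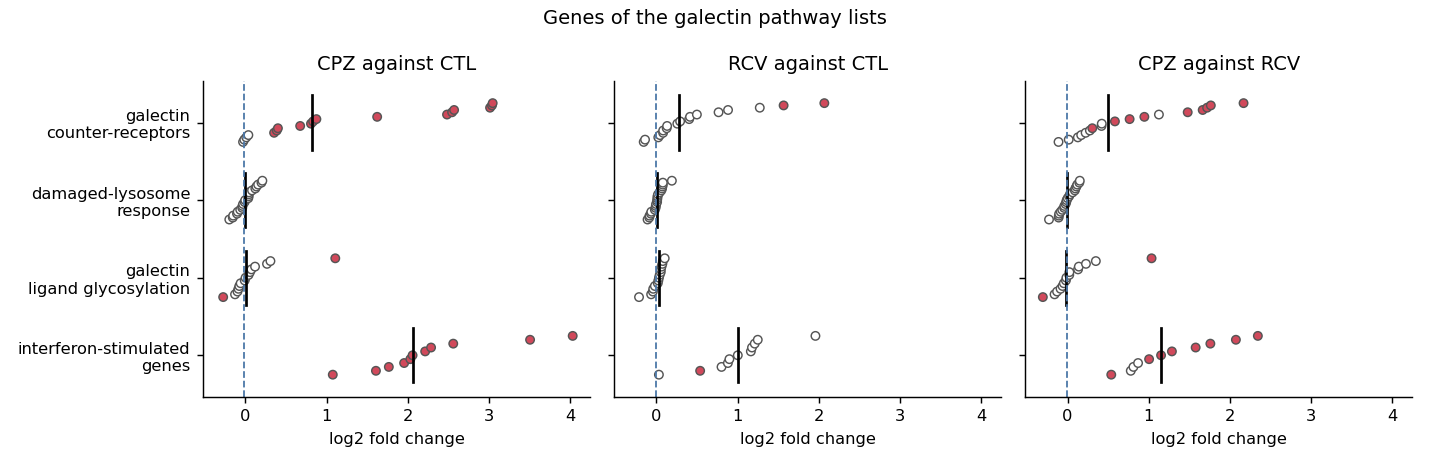
Log2 fold change (x axis) of every tested gene of 4 lists in the 3 comparisons, with called genes filled, others open, the list median as a black line and the median over all genes dashed. All 11 interferon-stimulated genes and 14 of 18 counter-receptor genes are filled in CPZ against CTL, and none of the 21 genes of the damaged-lysosome response.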

How the data were processed

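Bulk RNA-seq libraries, 5 of CTL, 4 of CPZ and 4 of RCV, were analysed, with groups taken from the treatment field of the labels. Estimated counts per gene were deposited by the authors without scaling, and 4.45% of them were not whole. They were rounded to whole numbers before fitting. The authors also deposited TPM values, scaled to length and library size. The submitters' processing notes name STAR, RSEM and mm10, without versions or roles. The 92 spike-in identifiers held 0 counts and were left out. Libraries held 4605100 to 8197289 counts.

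Low genes were removed by filterByExpr (edgeR 4.0.16 in R 4.3.3). After TMM scaling, the quasi-likelihood F test in its robust form was run in 1 fit of all 13 libraries. P values of each of the 3 comparisons were adjusted over all 14985 genes (Benjamini-Hochberg) and called below 0.05. A prior count of 2 went into log2 CPM. The SE of a log2 fold change was taken as its absolute value divided by the square root of F, and is approximate. The fit was tested on simulated data. P-values measure the spread between these libraries, which may be technical where libraries share a mouse.

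The members and the lists were chosen with earlier results of these data known, so members have no p. Adjusted p values printed for list genes come from the fit over all genes and, for the same reason, are a description only. Named are the 5 members, the other galectin genes, from each other list up to 4 called genes per comparison by size of change whose mean log2 CPM reached 1, and the 3 genes most like each member. Of these, 2 genes are not reported here. Havcr2, Lamp1, Lamp2, the uncalled counter-receptors and the genes of the lysosome list were added after their values were seen, as were Ttr, S100a8, S100a9, Mrc1, Heatr1, Gfap and Mgat5. Alternatives used limma 3.58.1 and DESeq2 1.42.0, a minimum of 10 counts in every library, a TPM of at least 1 in 4 libraries, pseudocounts of 1 and 0.1, the 2 groups alone, the replicate number as a block and each library left out. The fit without RCV replicates 3 and 4 was chosen after seeing the data. Gene positions are from GENCODE M21, whose identifiers match 98.1% of the table, and promoters from RefSeq.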

Additional observations from a re-analysis of the deposited data

Results flagged for a closer look

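The TPM of Lgals3bp in RCV replicate 2 was 50.94, apart from the other 3 RCV libraries, with a gap to the nearest of 0.901 of the group's range. In all, 30 groups of levels were examined for such a gap, and chance alone would give it in about 1 of every 20 groups. A single flagged group among 30 is therefore no more than chance would give. In CPM the same library, at 43.4, did not stand apart to that degree.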

How the results depend on the processing

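In CPZ against CTL and CPZ against RCV, the number of the 5 genes called stayed within 1.5 times of 4 and 3 under every alternative run. With at least 10 counts in every library Lgals3 was not tested. Lgals8 was called in CPZ against CTL with only both groups in the fit (0.29), without CPZ replicate 4 (0.33) and without RCV replicate 2 (0.28). Between RCV and CTL, DESeq2 called 2 of the 5, adding Lgals3 (1.95), and limma on log2(TPM + 1) without a filter 0, with Lgals3bp at 0.94. Uncalled values turned sign in RCV against CTL for Lgals1 (-0.020 without RCV replicate 4, up to 0.17 with other single libraries left out, -0.098 without RCV replicates 3 and 4), Lgals8 (-0.030, -0.031 and -0.030 in the TPM fits with pseudocount 1, 0.1 and no filter, -0.00081 without RCV replicate 2, up to 0.16 without others) and Lgals4 (-0.32 without RCV replicate 3, but 0.049 without CTL replicate 2, 0.059 without CTL replicate 3, 0.052 without RCV replicate 2 and 0.013 without RCV replicate 4), and in CPZ against RCV for Lgalsl (-0.0036, -0.015 and -0.011 without CPZ replicate 3, RCV replicate 2 and RCV replicate 3, up to 0.099 without others). Of the values of single genes under all alternatives, 1228 kept direction and side of the threshold, 32 lost the call, 4 gained it and 13 turned sign.

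Over all genes, 993 were called in CPZ against CTL by limma on log2(TPM + 1) without a filter, against 1522. In RCV against CTL, with 56 called, there were 20 with at least 10 counts in every library, 131 by DESeq2, 16 by limma-voom, 16 by limma on TPM without a filter and 34 without RCV replicates 3 and 4. In CPZ against RCV, with 1050, there were 584, 503 and 477 in the TPM fits (pseudocount 1, 0.1, no filter) and 556 without RCV replicates 3 and 4. With single libraries left out, the counts ran from 1078 (without CPZ replicate 1) to 1680, from 21 (without RCV replicate 2) to 87 (without CPZ replicate 3) and from 632 (without CPZ replicate 1) to 1170.

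The lists of the damaged-lysosome response, interferon-stimulated genes, disease-associated microglia and counter-receptors moved in these settings. The damaged-lysosome response had 1 call in CPZ against CTL in each TPM fit, against 0. With at least 10 counts in every library, which removes low genes from the test, interferon-stimulated genes had 5 and disease-associated genes 7 calls in CPZ against CTL, disease-associated genes 0 in RCV against CTL, and the lists 4 and 7 in CPZ against RCV. Between RCV and CTL, interferon-stimulated genes had 3 calls by DESeq2, 0 in each TPM fit, 2 with only both groups in the fit and 0 without RCV replicates 3 and 4, and disease-associated genes 7 by DESeq2, 0 by limma-voom, 4 in both TPM fits with a filter and 6 with only both groups. Counter-receptors had 1 by limma-voom and 1 by TPM without a filter. In CPZ against RCV, interferon-stimulated genes had 2, 1 and 2 in the TPM fits and 4 without RCV replicates 3 and 4, where disease-associated genes had 5. With single libraries left out, interferon-stimulated genes had 1 to 3 in RCV against CTL (2 without CPZ replicate 1, CPZ replicate 2 or RCV replicate 4, 3 without CTL replicate 2) and 4 to 8 in CPZ against RCV (4 without CPZ replicate 1, 5 without CPZ replicate 4, RCV replicate 1 or RCV replicate 4), and disease-associated genes 2 to 7 in RCV against CTL (7 without CPZ replicate 1, 5 without CPZ replicate 3). The cause of these changes was not tested.

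With the replicate number as a block, 1172 genes were called in CPZ against CTL, 42 in RCV against CTL and 755 in CPZ against RCV, disease-associated genes had 4 calls in RCV against CTL and interferon-stimulated genes 5 in CPZ against RCV. Libraries of the same number correlated in their deviations by -0.199 to 0.136, and 0, 2 and 0 of 8 libraries correlated best with their own number, so the numbers were not taken to pair the mice.

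In TPM, the CPZ to CTL ratio per microglia marker was 0.325 for Lgals1 and 1.03 for Lgals3bp. On log2 CPM, the share remaining in RCV was 42.0% for Lgals3bp and 41.6% for Lgals9. Of the 3 genes most like each member, Spearman's rho named 0 again for Lgals1, 1 for Lgals3, 0 for Lgals3bp, 1 for Lgals8 and 1 for Lgals9. Depth limits Lgals3 most, with 2 to 14 counts in the CTL libraries.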
